A study of Mus musculus with 30 samples.

Results

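The integrins and laminins of the mouse heart were followed here across 8 groups of hearts. Members were the protein-coding rows of the count table whose GENCODE symbol is Itga or Itgb followed by digits, 1 letter or 2b, or Lama, Lamb or Lamc followed by 1 digit. That rule, which uses names and no measured value, gave 37 of the 55487 rows, among them 18 integrin alpha and 8 integrin beta genes, the rest encoding laminin alpha, beta and gamma chains. Described here are 36 of them, and counts of members are over these. Genes with related names that the rule leaves out (Itgb1bp1, Itgb1bp2, Itgb2l, Itgb3bp and Itgbl1) are not members.

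Integrins are paired receptors, each made of an alpha and a beta chain, that span the plasma membrane and tie the extracellular matrix to the actin cytoskeleton. Laminins are trimers of an alpha, a beta and a gamma chain and form the sheet of basement membrane around each cardiac muscle cell and each vessel, where integrins and dystroglycan bind them. In heart muscle cells the receptors sit at costameres, where they pass contractile and wall force between matrix and sarcomere. Which alpha chain pairs with which beta chain sets the ligand: some pairs read the RGD motif of fibronectin and vitronectin, some bind collagen, some bind laminin, and the Itgb2 and Itgb7 pairs are those of leukocytes.

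Messenger RNA of 30 mouse hearts was sequenced, with 4 libraries in each of 6 groups and 3 in each of the PBS groups, all collected 8 weeks after surgery. In the floxed cohort, FF_sham and FF_TAC were Cpt1a floxed mice after sham surgery or transverse aortic constriction (TAC), a clip on the aortic arch that overloads the left ventricle, and KO_sham and KO_TAC were mice with a heart-specific knockout of Cpt1a, the enzyme that loads long-chain fatty acids for mitochondrial oxidation, after the same procedures. In the AAV9 cohort, PBS_sham, PBS_TAC, AAV_sham and AAV_TAC were C57Bl/6 mice given PBS or AAV9.Cpt1a, a virus vector in which the cardiac troponin T promoter drives Cpt1a, with the same surgeries. The labels name neither the Cre line behind the knockout nor the background of the floxed mice, the vector control is saline and not an empty virus, and the clip came in 2 sizes that are not given per mouse. The titles of the 4 KO_TAC samples carry the words TAC and Sham together and no genotype, so this group rests on their genotype and treatment labels.

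Libraries held 14839758 to 22070373 counts, and the 8 heart muscle markers summed to 27305 to 76220.4 CPM, counts scaled to the size of the library. Cpt1a read 19.6, 11.9, 14.1 and 11.1 CPM in KO_TAC and 22.5, 46.3, 20.3 and 23.7 in KO_sham, against 48.9, 20.3, 16.2 and 34.0 in FF_TAC and 37.8, 43.9, 52.7 and 45.9 in FF_sham. The library labelled KO_sham 2 therefore lay in the FF_sham range, and the library labelled FF_TAC 3 in the KO_TAC range. The library labelled FF_TAC 2, at 20.3, was just above the highest KO_TAC library, at 19.6, and below every FF_sham library. FF_TAC 4, at 34.0, was also below every FF_sham library. Haemoglobin transcripts were under 100 CPM in 7 libraries, at 1.40 to 51.1 CPM: all 4 of KO_TAC and the libraries labelled FF_TAC 2, FF_TAC 3 and KO_sham 2. The other 23 held 293.9 to 943.5 CPM. The same 7 libraries had summed levels of 14 early response genes (Fos, Egr1, Atf3 and the like) of 2056 to 5161 CPM, against 206 to 300.1 in the other 9 of the floxed cohort. Calls among the members and the pathway lists are given with and without the 3 of these libraries that lie outside KO_TAC. No label says that numbered samples are separate litters or preparations, so p-values measure the spread between these libraries.

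Ranked by CPM per kb of exon, Itgb1, the beta chain shared by most matrix-binding integrins, was the most abundant member in 7 of the 8 groups, with a mean of 86.6 over the 8 groups. Lamb2, the laminin beta chain of the muscle basement membrane, followed at 72.5 and was above it in PBS_sham (79.7 against 78.0). Next were Itgb5 at 39.4 and Itga7, the laminin-binding alpha chain of muscle, at 24.0. Itga5, the fibronectin receptor alpha chain, stood at 20.5 and Lamc1, the common gamma chain, at 20.2 CPM per kb. Lama5 (13.3) had the highest mean of the laminin alpha chains, ahead of Lama4 (6.96), the chain of vessels and muscle, and Lama2 (5.39), the main chain of the muscle cell sheath. In KO_TAC, Lama4 (7.11) was above Lama5 (6.53) and Itga5 (40.9) above Itga7 (24.8). Over the 8 groups 2 genes, Itgb5 and Lama1, held the same place throughout, 20 of the 36 moved by at most 3 places, and Itga8 moved by 12.

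The lowest 4 were the leukocyte chains Itgad and Itgae, the collagen-binding Itga2 and the embryonic chain Lama1, while the leukocyte beta chain Itgb2 stood at 2.55. Itgad, Itgae and Itga2 averaged 0.0709, 0.0873 and 0.0859 CPM per kb, and Lama1 was at 0.00391, with 0 to 0.166 CPM in any library. Lama1 and Itgad were too low to test in either cohort, and Itgae in the AAV9 cohort, so 34 of the 36 entered the fit of the floxed hearts and 33 that of the AAV9 hearts. Exon bases of 9 members (Itga4, Itga7, Itga8, Itgad, Itgav, Itgb4, Lama2, Lama3 and Lamc3) are shared with a gene on the opposite strand, from 9 bases in Itga7 to 1124 in Itga4. Their counts are uncertain, since the strand setting of the counting is not given in the sources used here. Itga1, Itga10, Itgad and Itgam share exon bases with a gene on the same strand, Itgam for 3450 of its 5024 bases, and strand cannot separate those reads.

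**Figure D1:**
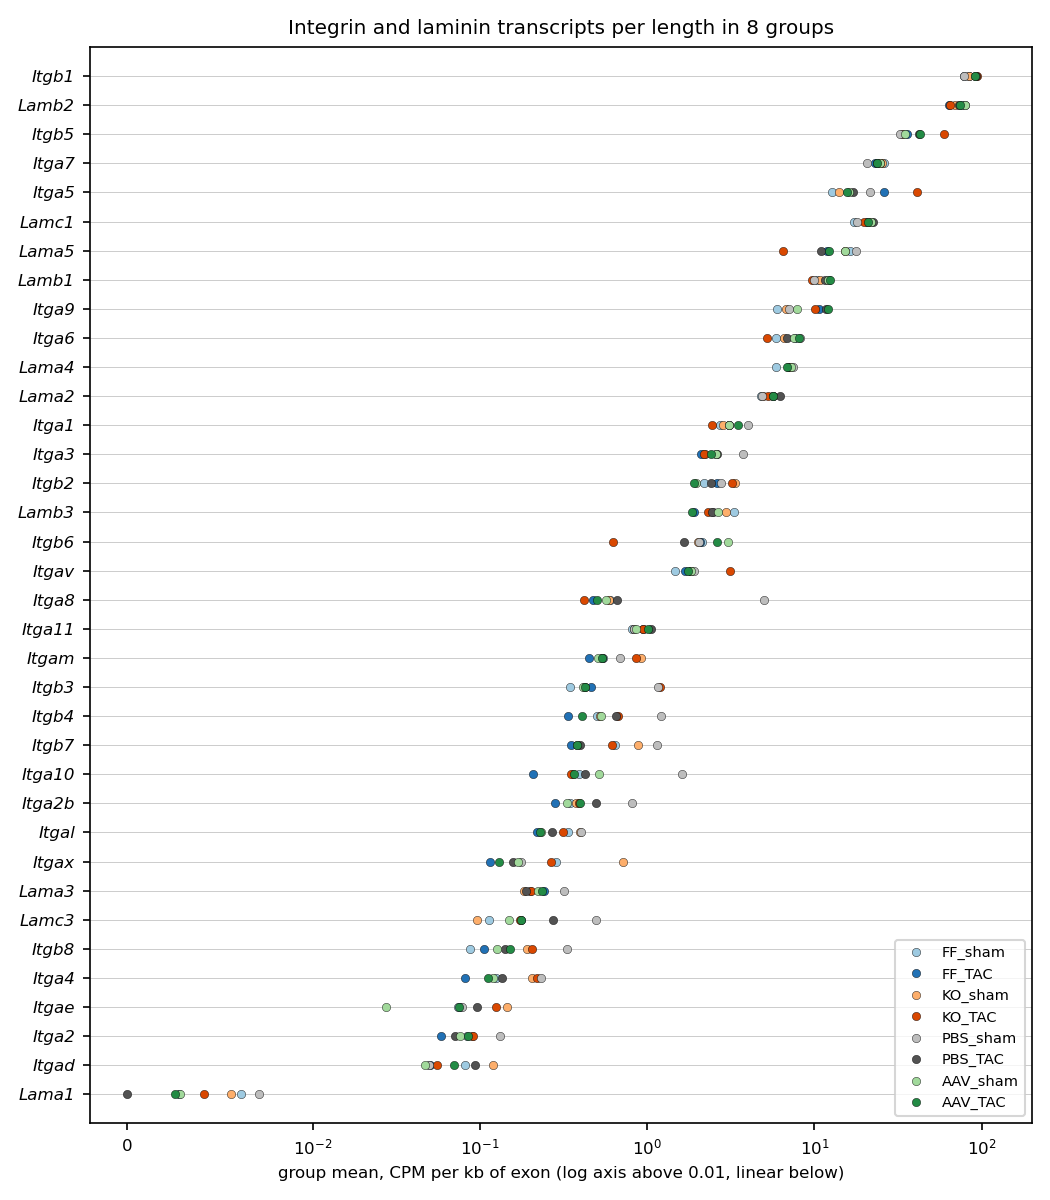
Group means of the 36 genes in CPM per kb of exon (horizontal axis, log above 0.01), 1 point per group and genes in order of their mean over the 8 groups. Places shift between groups (Itga8 by 12, 2 genes not at all); Itgb5, Itga5 and Itgav lie furthest right in KO_TAC, Itgb6 and Lama5 furthest left in KO_TAC, and Itga8 and Itga10 furthest right in PBS_sham.

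In overloaded knockout hearts 4 members rose and 2 fell against KO_sham, and 5 rose and 2 fell against FF_TAC. Against KO_sham, Itga5, Itgb3, Itgb5 and Itgav rose and Lama5 and Itgb6 fell, in edgeR's quasi-likelihood test after Benjamini-Hochberg adjustment over all genes. Against FF_TAC, Itga4, Itgb3, Itgam, Itgav and Itgb5 rose and Itgb6 and Lama5 fell. Called were thus 6 of 34 members, or 17.6%, against KO_sham and 7 of 34, or 20.6%, against FF_TAC. Against KO_sham 25.8% of all 15596 genes tested were called, 14.3% higher and 11.5% lower, and against FF_TAC 14.3% were, 7.53% higher and 6.8% lower. The members' share was below the background in the first comparison and somewhat above it in the other, and is no result about the members as a set. The median log2 fold change of the members was −0.02 against KO_sham and 0.22 against FF_TAC, beside 0.02 and 0.04 for all genes. Both comparisons use the KO_TAC libraries, so their 5 shared calls (Itgav, Itgb3, Itgb5, Itgb6 and Lama5) are not independent of each other. In bulk tissue, fewer cells of a type and less RNA per cell cannot be told apart.

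**Figure D2:**
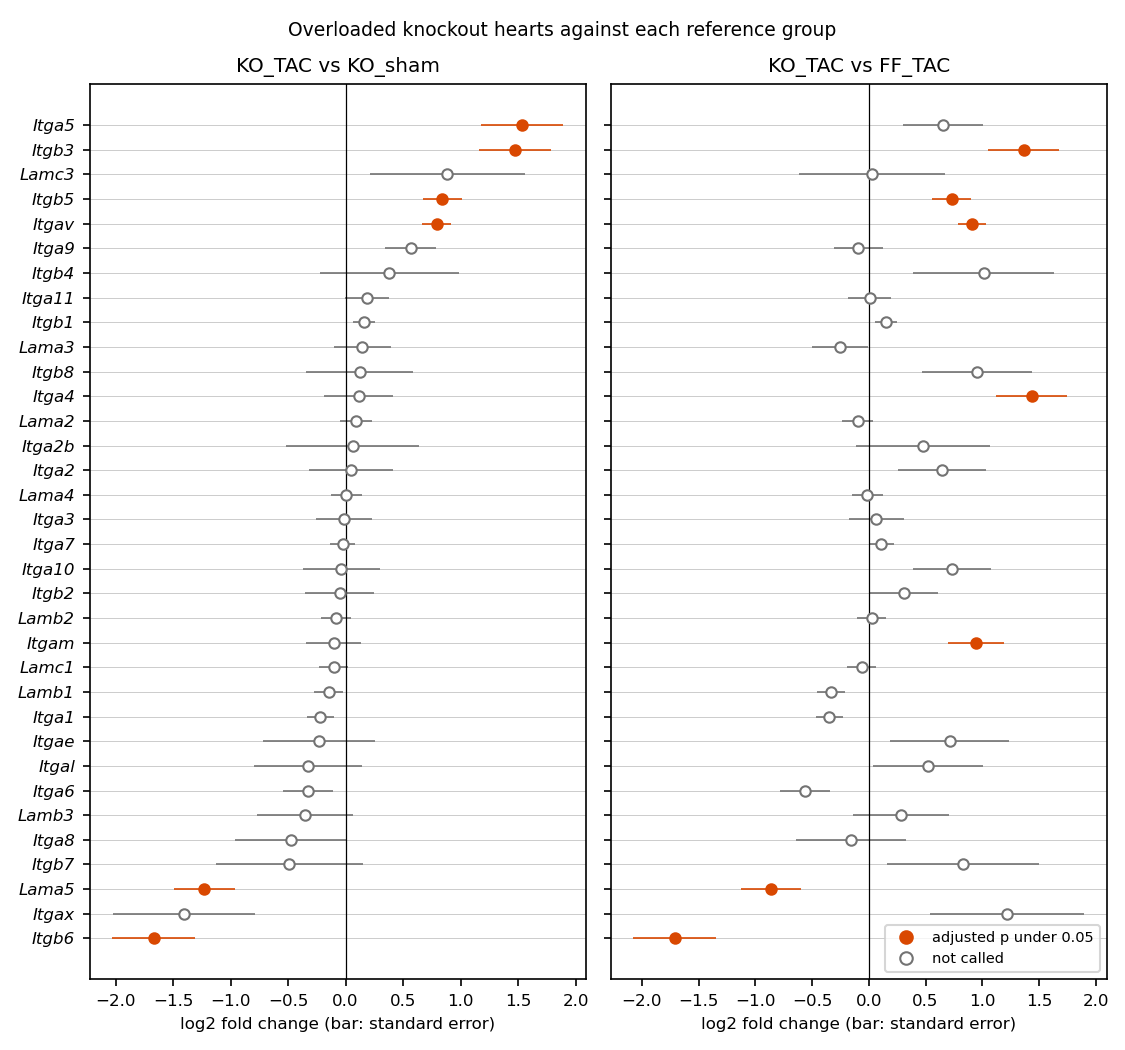
Log2 fold change of each tested gene with its standard error in KO_TAC against KO_sham (left) and against FF_TAC (right), in the order of the left panel; filled points have an adjusted p under 0.05. Itga5, Itgb3, Itgb5 and Itgav are filled on the right of 0 in the left panel, with Lama5 and Itgb6 on the left of it.

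Among the RGD-binding receptors, Itgav and 2 of the beta chains it pairs with were called in both comparisons. Itgav (chr2:83724397-83806916, plus strand, GRCm38), the alpha chain of the vitronectin receptors, which also bind latent TGF-beta, read 35.5, 29.8, 31.3 and 38.8 CPM in the 4 KO_TAC libraries, 20.0, 20.6, 18.5 and 19.1 in KO_sham, 14.4, 19.7, 22.5 and 15.6 in FF_TAC and 15.8, 16.1, 16.1 and 15.4 in FF_sham. Every KO_TAC library was above every other library of the cohort. The difference was a log2 fold change of 0.79 ± 0.13 (SE), adjusted p = 0.00153 against KO_sham, and 0.91 ± 0.13, adjusted p = 0.000765 against FF_TAC. Itgb5 (chr16:33829665-33949338, plus strand) was the most abundant of the beta chains Itgb3, Itgb5, Itgb6 and Itgb8. It read 145, 216, 295 and 190.5 CPM in the 4 KO_TAC libraries, 114, 117, 125 and 116 in KO_sham, 108, 141, 141 and 119 in FF_TAC and 137, 102, 127 and 115 in FF_sham. KO_TAC 1 was the lowest of its group and still above the other 3 groups. Itgb5 rose by 0.84 ± 0.17 against KO_sham (adjusted p = 0.00463) and 0.73 ± 0.17 against FF_TAC (adjusted p = 0.0114) on the log2 scale. Itgb3 (chr11:104608000-104670476, plus strand), which pairs with Itgav on activated vessels and fibroblasts and with Itga2b on platelets, read 5.76, 5.86, 7.12 and 9.29 CPM in the 4 KO_TAC libraries, 2.54, 2.07, 2.13 and 3.34 in KO_sham, 3.51, 1.27, 3.50 and 2.60 in FF_TAC and 1.10, 2.62, 1.94 and 2.47 in FF_sham. The KO_TAC libraries did not overlap the other groups, and Itgb3 rose by 1.47 ± 0.31 (adjusted p = 0.00569) against KO_sham and 1.36 ± 0.31 (adjusted p = 0.0104) against FF_TAC. All 3 kept their call in each of the 8 fits per comparison that left out 1 library.

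Itgb6 (chr2:60598292-60722643, minus strand), another partner of Itgav and an activator of latent TGF-beta in epithelium, went the other way. It read 7.88, 1.80, 1.89 and 6.13 CPM in the 4 KO_TAC libraries, 17.1, 10.5, 14.7 and 14.7 in KO_sham, 14.5, 13.7, 12.8 and 17.8 in FF_TAC and 16.6, 11.6, 14.8 and 17.6 in FF_sham. All KO_TAC libraries were below all others of the cohort, with KO_TAC 2 and 3 lowest. Itgb6 fell by 1.67 ± 0.36 on the log2 scale against KO_sham (adjusted p = 0.0062) and by 1.71 ± 0.36 against FF_TAC (adjusted p = 0.0069). Per kb of exon, Itgb6 made up 2.57, 0.408, 0.314 and 1.53% of the Itgb3, Itgb5, Itgb6 and Itgb8 transcripts of the KO_TAC libraries. In the KO_sham libraries that share was 6.84, 4.23, 5.48 and 5.81%, in FF_TAC 6.11, 4.59, 4.27 and 6.84% and in FF_sham 5.70, 5.26, 5.43 and 7.02%. Itgb8 was not called (0.12 ± 0.47 and 0.95 ± 0.48). Of the other RGD-binding alpha chains, Itga5 is given below, and Itga8 and Itga2b were not called. Itga8 differed by −0.48 ± 0.48 and −0.16 ± 0.49, and the platelet chain Itga2b by 0.06 ± 0.58 and 0.48 ± 0.59.

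Itga5 (chr15:103344286-103366763, minus strand), which pairs with Itgb1 as the classical fibronectin receptor, had the largest log2 rise from KO_sham of the 34 members tested. It read 225, 177, 183 and 221 CPM in the 4 KO_TAC libraries, 58.0, 99.3, 61.2 and 60.3 in KO_sham, 47.8, 166, 226 and 71.9 in FF_TAC and 66.7, 55.8, 61.1 and 69.1 in FF_sham. The libraries labelled FF_TAC 2 and FF_TAC 3 were at the KO_TAC level and the other FF_TAC libraries at the sham level. The library labelled KO_sham 2 was the highest of its group. Itga5 rose by 1.53 ± 0.36 against KO_sham (adjusted p = 0.00895), and differed by 0.65 ± 0.35 from FF_TAC (adjusted p = 0.218). These 3 libraries are the haemoglobin-low ones outside KO_TAC. Among haemoglobin-low libraries alone, KO_TAC and FF_TAC differed in Itga5 by 0.01 (adjusted p = 0.992), and with a term for haemoglobin the KO_TAC to KO_sham difference was 0.56 (adjusted p = 0.225). Without the 3 libraries the differences were 1.74 and 1.74, with adjusted p = 1.1e-05 and 5.3e-05. No KO_TAC library is haemoglobin-high, so within KO_TAC that state did not vary.

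The other calls were refitted on the same split. Among haemoglobin-low libraries alone, with 4 KO_TAC against 2 FF_TAC, edgeR called no member and 0.0% of all genes in either direction. The log2 differences of the other called members kept their direction. Itgav differed by 0.66 (adjusted p = 0.279), Itgb3 by 1.53 (0.303), Itgb5 by 0.56 (0.546), Itgb6 by −1.59 (0.398) and Lama5 by −0.56 (0.46). With the haemoglobin term, 5 members (Itga4, Itgam, Itgav, Itgb3 and Itgb6) were called against FF_TAC, where 3.91% of all genes rose and 3.31% fell. With that term 2, Itgb3 and Lama5, were called against KO_sham, where 0.866% rose and 0.885% fell. Without the 3 haemoglobin-low libraries outside KO_TAC, 6 were called against KO_sham, where 12.7% of all genes rose and 10.7% fell. In that fit 9 were called against FF_TAC, where 11.7% rose and 10.8% fell. These counts are no result about the members as a set.

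**Figure D3:**
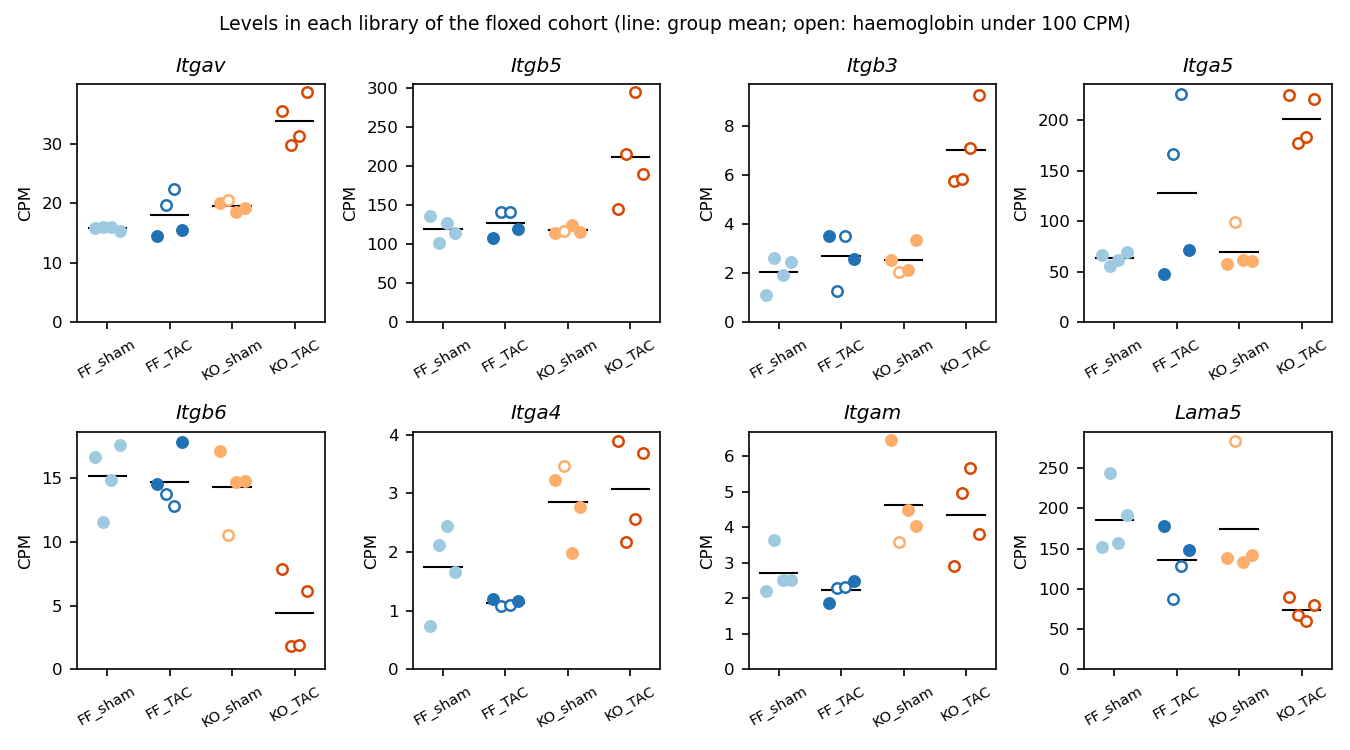
CPM of the 8 genes called in at least 1 comparison, 1 panel per gene and 1 point per library of the floxed cohort; lines are group means and open points are libraries with haemoglobin under 100 CPM. The KO_TAC points of Itgav, Itgb5 and Itgb3 lie above and those of Itgb6 below every other library, while Itga5 is as high in 2 open FF_TAC points (166 and 226 CPM) as in KO_TAC.

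The bases upstream of some of the called members are shown so that those of higher and lower members can be set side by side. RefSeq windows (GRCm38.p6) were matched for 23 of the 36 members, giving 26 windows. The 250 bases before the start were searched on both strands for the AP-1 motif TGANTCA, the TEAD motif CATTCC, the GC box GGGCGG and the CArG box, the site of serum response factor. GC boxes were in 9 of the 26 member windows, beside 32.7% of all 32851 windows, and CArG boxes in 2, beside 1.47%. AP-1 was in 1, beside 6.75%, and TEAD in 3, beside 12.6%. The 150 bases before the start are printed for Itga5, Itgav and Itgb5, which were higher in KO_TAC, and for Itgb6 and Lama5, which were lower. The called Itga4 and Itgam, with 1 GC box each in their 250 bases, are not printed, and Itgb3 had no window. Capitals mark GC boxes on either strand in Itga5, Itgb5 and Lama5, and the CArG box in Itgb6.
Itga5: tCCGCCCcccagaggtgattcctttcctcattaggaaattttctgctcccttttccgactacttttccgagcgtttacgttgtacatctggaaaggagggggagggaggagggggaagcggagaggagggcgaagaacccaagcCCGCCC
Itgav: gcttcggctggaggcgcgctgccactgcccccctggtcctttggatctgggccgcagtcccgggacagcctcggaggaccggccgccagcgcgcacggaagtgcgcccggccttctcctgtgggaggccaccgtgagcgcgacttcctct
Itgb5: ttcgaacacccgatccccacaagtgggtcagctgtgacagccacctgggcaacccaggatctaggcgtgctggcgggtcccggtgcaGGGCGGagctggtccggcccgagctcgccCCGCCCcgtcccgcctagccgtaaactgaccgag
Itgb6: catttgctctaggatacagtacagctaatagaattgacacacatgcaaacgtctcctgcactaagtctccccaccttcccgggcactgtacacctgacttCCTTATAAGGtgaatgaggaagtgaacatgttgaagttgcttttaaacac
Lama5: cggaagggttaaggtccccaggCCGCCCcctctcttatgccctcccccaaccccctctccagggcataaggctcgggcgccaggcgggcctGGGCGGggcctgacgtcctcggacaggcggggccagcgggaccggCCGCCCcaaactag
They lie at Itga5 chr15:103366792-103366941 (minus), Itgav chr2:83724247-83724396 (plus), Itgb5 chr16:33829515-33829664 (plus), Itgb6 chr2:60673694-60673843 (minus) and Lama5 chr2:180225860-180226009 (minus), each written along its gene's strand. Itgb6 has 2 starts in the table. The one shown lies 48950 bases inside the annotated 5′ end of the gene and has the CArG box beginning 50 bases before it. The window of the other start, at the 5′ end of the gene, holds none of the 4 motifs. Lama2 had the other CArG box, beginning 39 bases before its start. No such match is in the Itgav window, and Itgb5 and Lama5 hold 3 and 4 GC boxes in their 250 bases. A match is a stretch of letters and no evidence of binding.

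Collagen-binding and laminin-binding alpha chains showed no called difference in KO_TAC. Itga1 and Itga11, collagen receptors of mural cells and fibroblasts, differed from KO_sham by −0.22 ± 0.12 and 0.18 ± 0.19, and the low-level Itga2 and Itga10 by 0.05 ± 0.37 and −0.04 ± 0.33. Itga7 differed by −0.03 ± 0.11, Itga3 by −0.01 ± 0.24 and Itga6, the laminin receptor of endothelium, by −0.33 ± 0.22. Against FF_TAC, Itga1 was −0.35 ± 0.12 (adjusted p = 0.0603) and Itga6 −0.56 ± 0.22 (adjusted p = 0.0944). Itgb1 read 365, 368, 373 and 424 CPM in the 4 KO_TAC libraries, 344, 382, 326 and 314 in KO_sham, 303, 363, 384 and 329 in FF_TAC and 314, 316, 311 and 336 in FF_sham. KO_TAC overlapped KO_sham and FF_TAC and lay above FF_sham, and KO_TAC 4 was the highest library. The Itgb1 differences were 0.16 ± 0.10 (adjusted p = 0.215) and 0.15 ± 0.10 (adjusted p = 0.305).

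Among receptors that leukocytes carry, Itga4 and Itgam were called against FF_TAC. Itga4 (chr2:79255426-79333123, plus strand), whose pairs bind fibronectin and Vcam1, read 3.89, 2.18, 2.56 and 3.69 CPM in the 4 KO_TAC libraries, 3.23, 3.47, 1.98 and 2.77 in KO_sham, 1.21, 1.09, 1.10 and 1.16 in FF_TAC and 0.733, 2.13, 2.45 and 1.66 in FF_sham. FF_TAC was low and narrow, and KO_TAC overlapped KO_sham. Itga4 was 1.43 ± 0.32 higher than in FF_TAC (adjusted p = 0.00839) and differed by 0.11 ± 0.30 from KO_sham (adjusted p = 0.8). Itgam (chr7:128062640-128118491, plus strand), the alpha chain of the complement receptor of myeloid cells, read 2.91, 4.96, 5.67 and 3.81 CPM in the 4 KO_TAC libraries, 6.45, 3.59, 4.47 and 4.02 in KO_sham, 1.86, 2.29, 2.33 and 2.49 in FF_TAC and 2.20, 3.65, 2.50 and 2.53 in FF_sham. Its KO_TAC libraries were above all FF_TAC libraries and within the KO_sham range but for 1. Itgam rose by 0.95 ± 0.25 against FF_TAC (adjusted p = 0.0196), a call lost without KO_TAC 3 or without FF_TAC 1. The difference from KO_sham was −0.10 ± 0.24 (adjusted p = 0.772). Itgb2, the partner of Itgam, Itgal and Itgax, was not called (0.31 ± 0.30 against FF_TAC). Neither were Itgal (0.52 ± 0.48), Itgax (1.22 ± 0.68), Itgae (0.71 ± 0.52) or Itgb7 (0.83 ± 0.67), all at wide errors.

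Marker levels moved beside these values. The leukocyte list summed to 259 to 324 CPM in KO_TAC, 165 to 199 in FF_TAC and 208 to 476 in KO_sham, and 3 of its 8 tested genes (Ptprc, Cd68 and Lyz2) rose against FF_TAC, where 7.53% of all genes rose and 6.8% fell (14.3% and 11.5% against KO_sham). Of that list, 4 of the 10 (Cd3e, Cd79a, S100a8 and S100a9) were at 0 in at least 1 library of the cohort. The fibroblast list summed to 1569 to 1924 CPM in KO_TAC, against 875 to 1023 in FF_TAC and 834 to 1184 in KO_sham, with 4 of 8 genes higher in either comparison. The endothelial list summed to 621 to 799 CPM in KO_TAC, 905 to 1079 in FF_TAC and 787 to 1027 in KO_sham, with 5 of 8 genes lower against KO_sham and 4 of 8 against FF_TAC. The mural list, for pericytes and smooth muscle, had 3 and 4 of 8 lower, and the cardiomyocyte list 2 of 8 in each. The mitochondrial share of counts was 15.7, 12.1, 12.4 and 18.7% in the 4 KO_TAC libraries and 20.9 to 26.0% in the other 12 of the cohort. No gene of the fibroblast, endothelial or mural list was at 0 in any library of the cohort. The part of these values in the integrin and laminin results was not tested.

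Among the laminins described, Lama5 was called. Lama5 (chr2:180176373-180225859, minus strand), the alpha chain of endothelial and epithelial basement membranes, read 90.2, 67.4, 59.6 and 80.4 CPM in the 4 KO_TAC libraries, 139, 284, 133 and 142 in KO_sham, 178, 87.6, 128 and 148 in FF_TAC and 152, 244, 157 and 192 in FF_sham. All KO_TAC libraries were below all KO_sham libraries, while KO_TAC 1 was above the library labelled FF_TAC 2. Lama5 fell by 1.23 ± 0.27 on the log2 scale against KO_sham (adjusted p = 0.00606), and by 0.87 ± 0.26 against FF_TAC (adjusted p = 0.0402). Without the library labelled KO_sham 2, at 284 CPM, the first difference was −0.90 and still called. The other call was lost without KO_TAC 2, 3 or 4 or without FF_TAC 1, 3 or 4.

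Lama2, the chain whose loss causes congenital muscular dystrophy, read 86.1, 80.6, 74.0 and 104 CPM in the 4 KO_TAC libraries, 78.3, 103, 67.2 and 75.1 in KO_sham, 77.3, 89.5, 101 and 101 in FF_TAC and 74.1, 84.5, 75.0 and 81.6 in FF_sham. Its ranges overlapped throughout, and the differences were 0.09 ± 0.14 and −0.10 ± 0.14 (adjusted p = 0.652 and 0.66). Lama4 differed by 0.01 ± 0.13 and −0.01 ± 0.13. Among beta and gamma chains, Lamb1, Lamb2 and Lamc1 lay between −0.33 and 0.02 in both comparisons. The epithelial chains Lama3, Lamb3 and Lamc3 and the hemidesmosome integrin Itgb4 had wider errors and no call: Lama3 differed by 0.14 ± 0.25 and −0.25 ± 0.25, Lamb3 by −0.35 ± 0.42 and 0.28 ± 0.42. Lamc3 differed by 0.88 ± 0.67 and 0.03 ± 0.65, and Itgb4 by 0.38 ± 0.61 and 1.01 ± 0.62. Without KO_TAC 1 these turned to −0.06 and −0.92 for Lamc3 and to −0.75 and −0.12 for Itgb4, and Lamb3 was at −1.11 (adjusted p = 0.0119) and −0.48 (adjusted p = 0.263). In the alpha chain make-up per kb of exon, Lama5 was 37.2, 35.3, 32.1 and 31.9% of laminin alpha transcripts in KO_TAC, against 51.6, 63.1, 52.7 and 50.1% in KO_sham, 57.2, 38.2, 42.6 and 50.1% in FF_TAC and 55.0, 65.8, 56.7 and 60.1% in FF_sham. The KO_TAC shares were below all others of the cohort. As a share it depends on Lama4 and Lama2 as well as on Lama5, and was not tested apart from them.

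**Figure D4:**
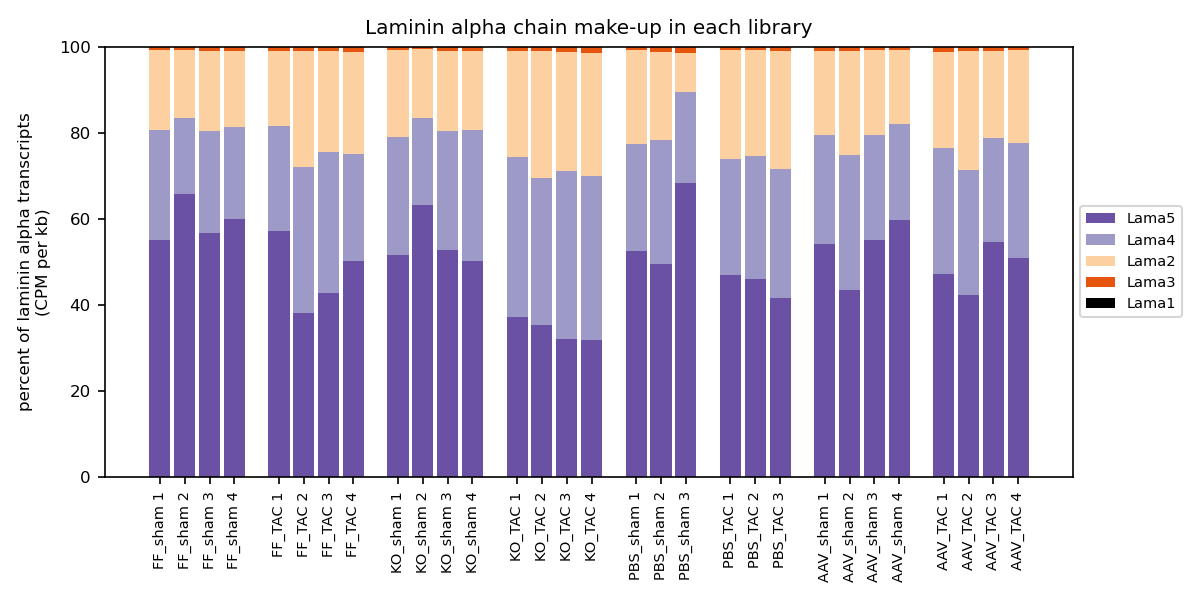
Make-up of laminin alpha transcripts in each library, in percent of the summed CPM per kb of exon, with bars stacked from Lama5 at the base to Lama1 at the top. Lama5 is the smallest in the 4 KO_TAC bars, at 31.9 to 37.2%, and largest in PBS_sham 3, at 68.2%; Lama3 and Lama1 are barely visible.

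The other genes of the adhesion system were followed in 3 lists. Of 29 tested cytoplasmic adhesion proteins, which link integrin tails to actin, 8 rose and 1 fell against KO_sham, where 14.3% of all genes rose and 11.5% fell, and 4 rose and none fell against FF_TAC, where 7.53% rose and 6.8% fell. Against KO_sham the largest were Bcar1, a scaffold of focal adhesion signalling, at 1.19 (59.1 ± 6.87 against 26.0 ± 6.50 CPM, SD, n = 4), the actin crosslinker Actn1 at 0.95 and zyxin, Zyx, at 0.85. Against FF_TAC they were the kinases Ptk2b at 1.18 and Src at 0.89, and Actn1 at 0.88. Of 23 basement membrane and laminin receptor genes, 3 rose and none fell against KO_sham, no larger a share than of all genes, led by Sparc, a collagen-binding matrix protein, at 1.08, with delta-sarcoglycan, Sgcd, at 0.87 and a collagen IV chain, Col4a1, at 0.53. Against FF_TAC, Sparc rose by 0.96 and dystrophin, Dmd, fell by 0.98 on the log2 scale (35.3 ± 5.42 against 69.6 ± 3.28 CPM, SD, n = 4). Without the 3 haemoglobin-low libraries outside KO_TAC, 8 adhesion proteins rose and 1 fell against KO_sham, where 12.7% of all genes rose and 10.7% fell, and 7 rose and 2 fell against FF_TAC, where 11.7% and 10.8% did. In that fit Ptk2b (adjusted p = 0.0515) lost its call against FF_TAC and Col4a1 (adjusted p = 0.123) that against KO_sham, which left 2 higher of its list. With the haemoglobin term, the KO_TAC to KO_sham difference of Bcar1 was 0.30 (adjusted p = 0.462). Actn1, at 0.85 (adjusted p = 0.0238), was the 1 adhesion protein called there, where 0.866% of all genes rose and 0.885% fell. Against FF_TAC, 4 adhesion proteins rose and none fell with that term, where 3.91% of all genes rose and 3.31% fell.

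Of 20 tested ligands other than laminins, 9 rose and none fell against KO_sham (14.3% and 11.5% of all genes), and 9 rose and 1 fell against FF_TAC (7.53% and 6.8%), with median log2 fold changes of 0.77 and 1.01 beside 0.02 and 0.04 for all genes. Against KO_sham, the leukocyte receptor ligands Icam1 and Vcam1 rose by 4.61 and 3.51, to 894 ± 472 and 445 ± 252 CPM (SD, n = 4), and periostin, Postn, by 2.87. Against FF_TAC, osteopontin, Spp1, rose by 4.38 (6.77 ± 4.63 against 0.315 ± 0.208 CPM, SD, n = 4), Ccn2 by 2.37 and Postn by 2.32. Summed over the list, the ligands read 4169, 4241, 5208 and 5549 CPM in KO_TAC, 1809, 1915, 1271 and 1541 in KO_sham, 988, 2684, 3197 and 1300.4 in FF_TAC and 1013, 1164, 1181 and 1042 in FF_sham. The libraries labelled FF_TAC 2 and FF_TAC 3 were again above the other FF_TAC libraries and below all of KO_TAC. Without the 3 haemoglobin-low libraries outside KO_TAC, 10 ligands rose and none fell against KO_sham, where 12.7% of all genes rose and 10.7% fell. In that fit 13 rose and 1 fell against FF_TAC, where 11.7% of all genes rose and 10.8% fell. Icam1 stood at 5.96 and 5.99 in these. Spp1 then lost its call against FF_TAC (4.19, adjusted p = 0.0552). Among haemoglobin-low libraries alone Icam1 differed from FF_TAC by −0.08 (adjusted p = 0.975). With the haemoglobin term 2 ligands rose against KO_sham, where 0.866% of all genes did. The differences of Icam1 and Vcam1 from KO_sham were then 1.35 and 1.87 (adjusted p = 0.316 and 0.0666). Against FF_TAC, 8 ligands rose and 1 fell with that term, where 3.91% of all genes rose and 3.31% fell.

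Overload in floxed hearts gave 0 member calls of 34 by edgeR, and 0.0% of all genes were called. At an unadjusted p under 0.05 there were 3 members, beside 11.1% of all genes, and DESeq2 called 1, Itga9. The 3 were Itga5 (1.02 ± 0.35), Itga9 (0.84 ± 0.22) and Itga10 (−0.90 ± 0.34). Adjusted p ran from 0.328 to 0.385. Itga5 was high in FF_TAC 2 and FF_TAC 3, and in haemoglobin-high libraries alone, which leaves these out, its difference was −0.07 (adjusted p = 0.954). Itga9, chosen here after its values were seen, encodes a receptor of tenascin-C and osteopontin. It read 49.8, 71.6, 71.0 and 117 CPM in the 4 KO_TAC libraries, 50.4, 49.4, 49.8 and 58.8 in KO_sham, 55.7, 90.7, 93.3 and 89.6 in FF_TAC and 44.9, 37.6, 56.9 and 44.1 in FF_sham. In the AAV9 cohort it read 56.1, 52.2 and 53.8 CPM in PBS_sham, 108, 85.7 and 79.1 in PBS_TAC, 54.4, 72.5, 57.2 and 57.01 in AAV_sham and 94.2, 134, 64.3 and 76.2 in AAV_TAC. In each of the 4 overloaded groups 3 libraries were above every sham library of their pair: all of PBS_TAC, and all but FF_TAC 1, KO_TAC 1 and AAV_TAC 3 in the others. The log2 differences were 0.84, 0.57, 0.75 and 0.61 in the FF, KO, PBS and AAV pairs, none of them called (adjusted p = 0.328, 0.0682, 0.167 and 0.416).

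The knockout without overload also gave 0 member calls by edgeR, with 0.0% of all genes called and 0 by DESeq2. At an unadjusted p under 0.05, 6 of 34 members stood apart, beside 5.22% of all genes, and all 6 were higher in KO_sham. They were Itgam (0.77 ± 0.24), Itga4 (0.71 ± 0.31), the dendritic cell and macrophage chain Itgax (1.33 ± 0.61), Itgb8 (1.11 ± 0.49), Itgav (0.31 ± 0.13) and Lamc1 (0.29 ± 0.13). Adjusted p was 0.879 or more. Itgax read 5.21, 1.16, 4.06 and 3.45 CPM in KO_sham and 0.611, 3.27, 0.911 and 0.678 in FF_sham, with the library labelled KO_sham 2 inside the FF_sham range. The leukocyte list summed to 476, 208, 347 and 300.4 CPM in KO_sham and 150.2, 244, 185 and 214 in FF_sham, again with KO_sham 2 inside the FF_sham range. Its part in the difference was not tested.

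The difference between the overload effects of the 2 genotypes was tested as an interaction. edgeR called 0 of 34 members, beside 0.0449% of all genes, and DESeq2 called 1, Itgb6. At an unadjusted p under 0.05 there were 7 members, beside 13.1% of all genes. The interaction was above 0 for Itgb3 (1.05 ± 0.45), Itgb5 (0.76 ± 0.24) and Itgav (0.60 ± 0.18), and below 0 for Itgb6 (−1.63 ± 0.50), Itga6 (−0.71 ± 0.31), Itga1 (−0.40 ± 0.17) and Lamb1 (−0.38 ± 0.17). Their adjusted p ran from 0.163 to 0.364, so with all libraries a genotype-dependent overload response was called for no member by edgeR and, by DESeq2, for Itgb6 alone. Without the 3 haemoglobin-low libraries outside KO_TAC, the interaction was called for Itga5 (1.82, adjusted p = 0.000588) and Itgav (0.88, adjusted p = 0.00678). The share of all genes called in that fit, and that called by DESeq2, is not given here. The counts of calls from them are no result about the members as a set.

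In the AAV9 cohort Itgav ranged from 15.8 to 22.9 CPM over the 14 libraries. Itga5 read 82.6, 102 and 135 CPM in PBS_sham, 79.5, 81.8 and 90.5 in PBS_TAC, 95.6, 79.0, 69.8 and 71.8 in AAV_sham and 89.1, 80.1, 73.3 and 66.4 in AAV_TAC. Itgb5 read 122, 136 and 87.0 CPM in PBS_sham, 152, 132 and 167 in PBS_TAC, 123, 136, 122 and 116 in AAV_sham and 167, 162, 136 and 144 in AAV_TAC. The 3 PBS_TAC libraries of Itgb5 overlapped PBS_sham, and all 4 AAV_TAC libraries were above the highest AAV_sham library, AAV_TAC 3 by little. No member was called by edgeR in any of the 5 comparisons of this cohort. The percent of all 15745 genes called was 0.0318% for PBS_TAC against PBS_sham, 0.00635% for AAV_TAC against AAV_sham, 0.0127% for AAV_sham against PBS_sham, 0.0381% for AAV_TAC against PBS_TAC and 0.00635% for the interaction. DESeq2 called 4, 0, 7, 0 and 0 members in these, and its share of all genes called is not given here.

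At an unadjusted p under 0.05, 14 of 33 members differed between PBS_TAC and PBS_sham, beside 18.5% of all genes, with 4 higher and 10 lower in PBS_TAC. Between AAV_sham and PBS_sham 14 did, beside 20.7%, with 1 higher and 13 lower in AAV_sham. Both comparisons share PBS_sham, and 1 of its 3 libraries stood apart. PBS_sham 3 had cardiomyocyte markers of 27305 CPM against 56925 to 73928 in the other 13 libraries, endothelial markers of 1793 and mural markers of 1656 CPM. Itga8, an RGD receptor of mesangial and smooth muscle cells, read 94.1 CPM there and 2.85 to 12.2 in the rest of the cohort. Itga1, the collagen receptor of smooth muscle, read 127 CPM against 38.6 to 66.8, and Lama5 309.9 against 104 to 224. Itga7, the muscle chain, was lowest there at 114 CPM. 

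Without PBS_sham 3, the Itga8 difference of PBS_TAC from PBS_sham went from −2.94 to −0.82, and that of AAV_sham from −3.14 to −1.01. Itga10 went from −1.94 to −0.85 and from −1.66 to −0.57, and Itgb3 from −1.46 to −0.76 and from −1.49 to −0.78. No member was called without that library. Without PBS_sham 1, which leaves PBS_sham 2 and 3, edgeR called 9 members in PBS_TAC against PBS_sham and 12 in AAV_sham against PBS_sham. The share of all genes called in those fits is not given here, so the counts are no result about the members as a set. Both remaining libraries had atrial markers (Myl7, Sln and Myl4, summed) of 2604 and 648 CPM, and PBS_sham 1 had 509.

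**Figure D5:**
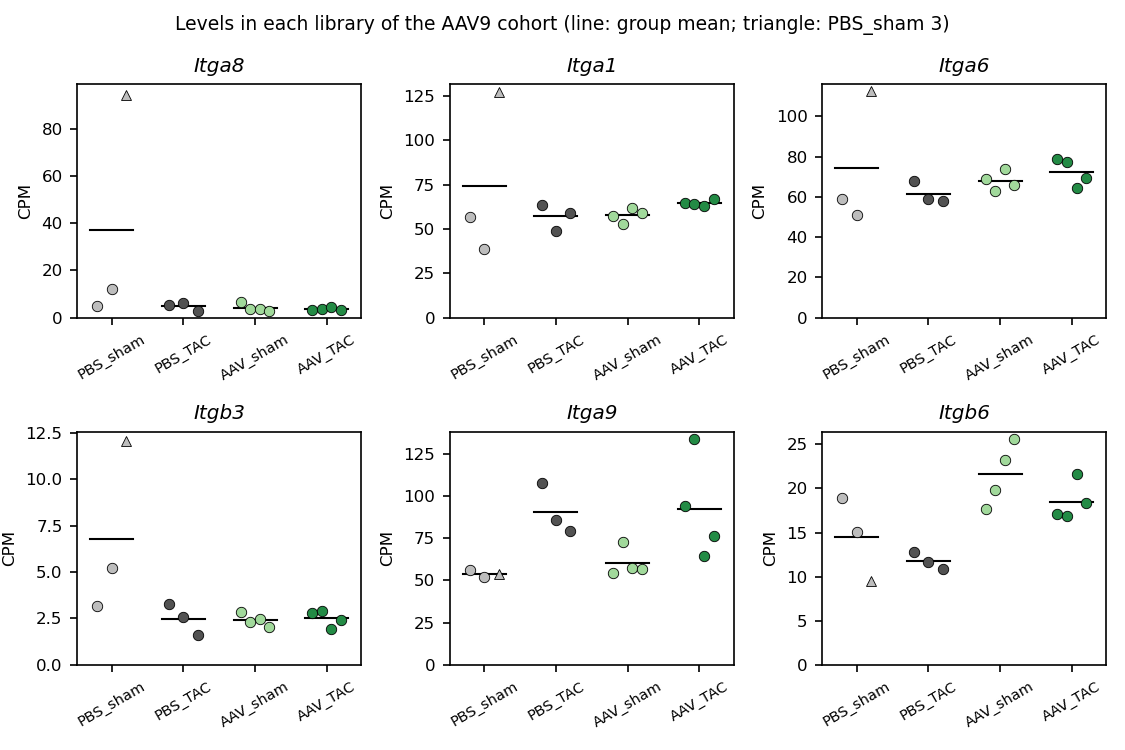
CPM of 6 integrin genes in each library of the AAV9 cohort, 1 panel per gene, with lines for group means and a triangle for PBS_sham 3. The triangle lies above every other point for Itga8 (94.1 CPM), Itga1, Itga6 and Itgb3, within its group for Itga9 and below every other point for Itgb6.

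AAV_TAC against PBS_TAC gave 1 of 33 members at an unadjusted p under 0.05, beside 3.19% of all genes, and AAV_TAC against AAV_sham 1, beside 7.05%. The first was Itgb6, which read 18.9, 15.1 and 9.46 CPM in PBS_sham, 12.8, 11.7 and 10.9 in PBS_TAC, 17.6, 19.8, 23.3 and 25.6 in AAV_sham and 17.1, 16.9, 21.6 and 18.4 in AAV_TAC. All AAV_TAC libraries were above all PBS_TAC libraries, and the difference was 0.65 ± 0.20 (adjusted p = 0.962). In AAV_sham against PBS_sham it was 0.58 ± 0.20 (adjusted p = 0.172), where PBS_sham 3 was lowest. The other was Itga9, given above. The interaction of vector and overload gave 6 members at an unadjusted p under 0.05, beside 6.95% of all genes, with Itga8 at 2.74 ± 1.03, and 0.61 without PBS_sham 3. The medians over the 33 members were −0.05 for AAV_TAC against PBS_TAC and −0.03 for AAV_TAC against AAV_sham, beside −0.01 and 0.00 for all genes.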

How the data were processed

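Gene counts, 1 column per library, were deposited by the authors as whole-number counts per Ensembl gene. The submitters' processing notes name HISAT2 2.1.0, featureCounts of Subread 1.5.1 and GRCm38. The annotation release and strand setting are not given in the sources used here. Per the labels' protocols, libraries were poly(A)-selected and directional. GENCODE M21 gave symbols, exon lengths and coordinates (55141 of 55487 identifiers matched).

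CPM values are scaled by TMM within a cohort, so levels of the 2 cohorts were not normalised together. Each cohort was fitted alone with edgeR 4.0.16 (R 4.3.3) after filterByExpr, with 15596 and 15745 genes tested, and adjusted by Benjamini-Hochberg over all of them at 0.05. The code was tested on simulated counts. No pair of libraries within a group agreed within sampling noise (42 pairs). Values are named for every member called in any comparison and for Itga5, Itgb1 and Lama2, and for the 3 called genes with the largest change in each pathway list. 1 member and 1 gene of the basement membrane list are not reported here and are in no count of members or list genes. Members and lists were chosen with earlier results of these data known.

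The alternatives were other size factors, filters, DESeq2 1.42.0, a replicate block, 1 fit of all 30 libraries, a haemoglobin term or split, a Myl7 covariate, and leaving out each library. Leaving out the 3 haemoglobin-low libraries outside KO_TAC was added after seeing the data.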

Additional observations from a re-analysis of the deposited data

Results flagged for a closer look

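In 18 of 202 tested sets of 4 libraries of a group, or 8.91%, 1 library lay far from the other 3 by Dixon's test, where chance flags about 1 in 20. All values are CPM, with the range of the other 3 libraries of the group.

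KO_TAC 1 was high for Itgb4 (12.3, others 1.91 to 2.40), Itga8 (7.68, others 1.28 to 2.02) and Lamb3 (33.8, others 7.73 to 11.5). Its atrial markers summed to 8480.4 CPM and its mesothelial and epithelial markers to 116. In the other KO_TAC libraries those sums were 3.63 to 6.76 and 1.22 to 2.18. KO_TAC 4 was high for Itgb1 (424, others 365 to 373) and Lama3 (3.22, others 1.80 to 1.87).

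The library labelled KO_sham 2 was high for Itga5 (99.3, others 58.0 to 61.2) and Lama5 (284, others 133 to 142). KO_sham 3 was low for Itga2b (0.781, others 2.40 to 2.55) and KO_sham 4 high for Itga9 (58.8, others 49.4 to 50.4).

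In floxed controls, FF_TAC 1 was low for Itga9 (55.7, others 89.6 to 93.3) and high for Itgb4 (4.93, others 1.35 to 1.69), and the library labelled FF_TAC 3 was high for Lama4 (105, others 78.5 to 82.1). FF_sham 3 was high for Itga8 (7.80, others 3.02 to 3.67) and FF_sham 2 for Itgax (3.27, others 0.611 to 0.911).

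In vector hearts, AAV_sham 2 was high for Itga9 (72.5, others 54.4 to 57.2), AAV_sham 3 low for Lama4 (81.7, others 88.7 to 89.9), AAV_TAC 1 high for Lama4 (92.8, others 77.8 to 80.2) and AAV_TAC 3 high for Itga2b (2.71, others 1.95 to 2.07). The PBS groups, with 3 libraries each, were not tested in this way.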

How the results depend on the processing

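The 13 member calls were refitted under each alternative, which gave 211 values. None changed sign, and 21 lost the call. Members called by setting were, for KO_TAC against KO_sham, 2 with the haemoglobin term and 6 to 10 over fits without 1 library (10 without KO_TAC 1). For KO_TAC against FF_TAC they were 0 in haemoglobin-low libraries alone and 5 to 10 without 1 library. For the KO interaction the members called were 1 by DESeq2, 2 without the 3 haemoglobin-low libraries outside KO_TAC and 0 to 2 without 1 library (2, Itgb5 and Itgb6, without KO_TAC 1). For FF_TAC against FF_sham DESeq2 gave 1. For PBS_TAC against PBS_sham there were 2 with no filter, 4 by DESeq2 and 0 to 9 without 1 library. For AAV_sham against PBS_sham there were 4 with no filter, 7 by DESeq2, 3 in the fit of all 30 libraries and 0 to 12 without 1 library. Both upper values are without PBS_sham 1. Except where stated, the share of all genes called in these alternative fits is not given here. Those counts are therefore no result about the members as a set. The cause of these shifts in the number of calls was not tested. A split or a left-out library also lowers the number of libraries in the fit, and its part was not tested either. The replicate block gave 6 and 7 calls in the KO_TAC comparisons and 0 elsewhere. Correlations of same-numbered libraries ran from −0.49 to 0.43. The best-correlated library had the same number in some cases and another number in others, so these values do not settle whether the numbers pair the libraries. Low members are limited by depth: Lama1 and Itgad could not be tested.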

Other observations

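Libraries differed in atrial markers (Myl7, Sln and Myl4), from 1.32 to 8480.4 CPM. Lamb3, the beta chain of epithelial laminin, was highest in KO_TAC 1 (33.8 CPM), the library labelled KO_sham 2 (32.6) and FF_sham 2 (28.3), which held 8480.4, 1674 and 2800.2 CPM of atrial markers. FF_sham 4, with 1.73 CPM of them, still had 24.4 CPM of Lamb3. Lama5 was highest within its group in the library labelled KO_sham 2 (284 CPM), in FF_sham 2 (244) and in KO_TAC 1 (90.2). In the AAV9 cohort it was lowest within its group in AAV_sham 2 (118 CPM) and PBS_sham 2 (139.5), which held 2290.3 and 2604 CPM of atrial markers. In AAV_TAC 3, with 734 CPM of them, Lama5 was the highest of its group (170 CPM). In PBS_TAC 2, with 1748 CPM, it lay between the other libraries of its group (129 CPM). Without KO_TAC 1, Lamb3, Itga8, Itga9 and Itgax joined the calls against KO_sham. These values were chosen after the data were seen and were not tested further.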
